A study of Mus musculus with 3 samples.

Results

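The 9 genes Gpam, Agpat2, Lpin1, Dgat1, Dgat2, Gpd1, Gk, Pck1 and Aqp7, which together build triglyceride and supply its glycerol backbone, were followed in nuclei of mouse interscapular brown adipose tissue (BAT). They were chosen by name, and all 9 are listed in each of the 3 deposited tables, which hold 25154 gene names between them. The tables come from 3 single-nucleus RNA libraries, 1 each of untreated BAT, of BAT from a sham operation and of denervated BAT, all from adult wild-type C57Bl6 mice. The nuclei were isolated from the floating layer of digested BAT, which holds lipid-filled brown adipocytes (BAs) and pieces of vessels, and RNA molecules were counted by unique molecular identifiers (UMIs) on the BD Rhapsody platform. By the paper, the untreated and the denervated library each pooled male mice, the nerves of the left lobe only were cut, the tissue was taken at day 3 (D-BAT3), and tamoxifen stands in its scheme of the denervation. The sham library is known here from its label alone, and whether it holds the uncut lobes of denervated mice is not stated for it. The paper uses the term both for the operation on the opposite, intact lobe (I-BAT) of denervated mice and for a separate group of sham-operated mice. With 1 library per condition there is no spread between replicates and no test, and every interval below is an exact 95% interval for counting error only.

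In the textbook pathway, glycerol-3-phosphate takes up fatty acyl groups in consecutive steps. Gpam encodes the mitochondrial acyltransferase of the first step and Agpat2 the acyltransferase of the next, Lpin1 encodes the phosphatidate phosphatase that yields diacylglycerol, and Dgat1 and Dgat2 encode 2 unrelated enzymes that add the last acyl group. Glycerol-3-phosphate is made from a glycolytic intermediate by the Gpd1 product, from pyruvate-derived carbon by way of the Pck1 product (glyceroneogenesis), or from free glycerol by glycerol kinase (Gk), while Aqp7 encodes a channel that passes glycerol through the plasma membrane. Brown fat is known for storing triglyceride in many small droplets and for turning it over quickly.

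The libraries differed in ways that touch every value. Counts were deposited for 13707, 15368 and 15822 barcodes of untreated, sham and denervated BAT, with a median of 859, 781 and 428 UMIs each, and mitochondrial genes took 6.71%, 12.9% and 2.95% of the UMIs. Any pair of libraries shared 251 to 278 barcodes. The sham table has no file header, and the header of the denervated table carries a run name with nKO where that of the untreated table has nC, which no source used here explains. After filters and removal of doublets, 10548, 11862 and 9684 nuclei were clustered without the 9 genes, and clusters were named from marker lists. Brown adipocyte-like nuclei numbered 4662, 3445 and 4997, endothelial-like nuclei 4777, 5345 and 2606, white adipocyte-like nuclei 119, 1007 and 896, and pericyte-like nuclei 638, 1465 and 810. Levels are given in CPM, a gene's UMIs scaled to a common total of all UMIs summed over the nuclei of a class, with intervals in parentheses. A CPM also depends on how well a gene's transcripts are captured, so levels are compared between classes and libraries but not between genes. Ucp1, the thermogenic uncoupling protein gene that took no part in naming, had 346, 400.5 and 309.9 CPM in brown adipocyte-like nuclei of the 3 libraries. Kit was at 315, 38.0 and 198 CPM there, so the sham library stood apart from the other two in this gene.

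All 9 genes are protein-coding on build GRCm38, the build given in the 2 file headers. Gpam lies on chromosome 19 from 55067268 to 55127238, Agpat2 on chromosome 2 from 26593057 to 26604417, Lpin1 on chromosome 12 from 16535669 to 16610966, Dgat1 on chromosome 15 from 76502015 to 76511953 and Dgat2 on chromosome 7 from 99153658 to 99182719. Gpd1 lies on chromosome 15 from 99717515 to 99725005, Gk on chromosome X from 85701937 to 85776819, Pck1 on chromosome 2 from 173153048 to 173159273 and Aqp7 on chromosome 4 from 41033074 to 41048139. Promoter sequence from RefSeq (GRCm38.p6, 250 bases before to 50 after a transcript start) was matched for 6 of the 9 genes. Of these, 4 are printed. Agpat2 and Gk were the genes past 2-fold between libraries of brown adipocyte-like nuclei, Pck1 changed its order between adipocyte classes with the library, and Aqp7 was higher in endothelial-like nuclei. Gpam and Aqp7 each matched 2 windows, and the upstream one of Aqp7 is shown. Capitals mark matches on either strand to CACGTG (E-box), TGACGT (core of the cAMP response element), AGGTCA (nuclear receptor half-site), GGGCGG (GC box) and CCAAT (the box named after these letters), and adjoining or overlapping matches run together.
Agpat2, chr2:26604368-26604667, minus strand: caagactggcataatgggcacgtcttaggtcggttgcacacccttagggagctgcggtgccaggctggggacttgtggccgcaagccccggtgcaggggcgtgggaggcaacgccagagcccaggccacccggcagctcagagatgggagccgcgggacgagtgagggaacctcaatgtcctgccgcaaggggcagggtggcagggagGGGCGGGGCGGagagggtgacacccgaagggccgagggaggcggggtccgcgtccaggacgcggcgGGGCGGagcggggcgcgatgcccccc
Gk, chrX:85776770-85777069, minus strand: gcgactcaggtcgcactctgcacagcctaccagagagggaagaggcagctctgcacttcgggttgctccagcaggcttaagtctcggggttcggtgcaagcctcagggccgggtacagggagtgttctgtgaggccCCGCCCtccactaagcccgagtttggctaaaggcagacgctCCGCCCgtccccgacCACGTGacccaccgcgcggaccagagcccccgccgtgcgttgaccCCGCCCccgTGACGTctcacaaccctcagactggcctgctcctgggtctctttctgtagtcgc
Pck1, chr2:173152823-173153122, plus strand: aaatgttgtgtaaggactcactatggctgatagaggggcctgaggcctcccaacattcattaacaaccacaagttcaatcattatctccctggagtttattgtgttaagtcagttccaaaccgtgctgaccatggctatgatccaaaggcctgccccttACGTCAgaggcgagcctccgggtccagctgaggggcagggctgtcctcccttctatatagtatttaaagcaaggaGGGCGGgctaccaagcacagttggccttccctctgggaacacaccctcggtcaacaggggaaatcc
Aqp7, chr4:41048087-41048386, minus strand: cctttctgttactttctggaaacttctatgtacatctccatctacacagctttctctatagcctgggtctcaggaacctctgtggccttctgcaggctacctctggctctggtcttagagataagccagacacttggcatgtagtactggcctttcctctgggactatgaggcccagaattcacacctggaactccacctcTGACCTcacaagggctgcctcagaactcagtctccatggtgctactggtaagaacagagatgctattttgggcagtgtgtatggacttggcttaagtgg

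Counted from 1 at the 5′ end of each window, with the transcript start at base 251, the Agpat2 promoter held 3 GC boxes, at bases 209 to 214, 214 to 219 and 275 to 280. The Gk promoter held an E-box at bases 193 to 198, 3 GC boxes, and a cAMP response element core at bases 247 to 252 that spans the start. In the Pck1 promoter the cAMP response element core lay at bases 160 to 165, on the reverse strand, with a GC box at bases 235 to 240. The Aqp7 window shown held a nuclear receptor half-site at bases 202 to 207, also on the reverse strand, and the other Aqp7 window, which overlaps it, held 2 half-sites. Among all 32851 RefSeq promoters of the same length, an E-box was found in 7.15%, the cAMP response element core in 7.51%, the half-site in 16.3%, a GC box in 35.7% and a CCAAT box in 37.4%. These matches describe letters in the window and no binding was measured.

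By CPM, the acyltransferase genes of the first steps, Gpam and Agpat2, did not keep the same order of libraries in brown adipocyte-like nuclei. Gpam had 87.1 (81.0 to 93.6) CPM in the untreated, 120.5 (111 to 131) in the sham and 103 (94.2 to 112) in the denervated library. The untreated level was the lowest of the 3, and the intervals of the sham and denervated libraries overlapped. As a difference of the mean over nuclei of log2 of counts per 10000 plus 1, where nuclei without a UMI enter as 0 (the mean log2 scale), Gpam for denervated over untreated, 0.24 by CPM, was at -0.055. For denervated over sham, -0.23 (-0.40 to -0.054) by CPM, it was at 0.11 with both adipocyte classes pooled. A difference on the mean log2 scale is not a log2 ratio of levels. It moves with the share of nuclei that hold a UMI, so the 2-fold rule does not apply to it. Agpat2 had 782 (763 to 801), 313 (298 to 329) and 508 (488 to 528) CPM in the same order, and none of these intervals overlapped. Agpat2 was thus lowest in the sham library, at a log2 ratio of -1.32 (-1.40 to -1.24) to untreated, and the denervated library lay between, at -0.62 (-0.69 to -0.56) to untreated. Lpin1, the phosphatase gene, kept the same order as Agpat2, with 1529.8 (1504 to 1556) CPM untreated, 775 (751 to 800.5) sham and 1232 (1201 to 1263) denervated. Its log2 ratio was -0.98 (-1.03 to -0.93) for sham over untreated and -0.31 (-0.36 to -0.27) for denervated over untreated.

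The genes of the final acylation differed between libraries by less than 1.5-fold by CPM. Dgat1 had 414 (400.1 to 428) CPM in untreated, 389 (372 to 407) in sham and 472 (453 to 491) in denervated brown adipocyte-like nuclei, highest after denervation by a log2 ratio of 0.19 (0.11 to 0.27) to untreated. Dgat2 had 938 (917 to 959), 841 (816 to 867) and 757 (734 to 782) CPM and was lowest after denervation, at -0.31 (-0.36 to -0.25) to untreated. The denervated library thus had the highest Dgat1 and the lowest Dgat2 level by CPM. On the mean log2 scale Dgat1 stood at -0.21 and Dgat2 at -0.84 for denervated over untreated. Dgat2 for denervated over sham, -0.15 by CPM, was at 0.021 in nuclei of 800 to 2500 UMIs and at 0.0077 without heat shock-led clusters.

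Among the genes that supply glycerol-3-phosphate, Gpd1 had 2372.5 (2339.9 to 2405) CPM in untreated brown adipocyte-like nuclei, 1423 (1389.8 to 1457) in sham and 2011 (1972 to 2050.4) in denervated nuclei. By CPM the order was that of Agpat2 and Lpin1, with log2 ratios to untreated of -0.74 (-0.78 to -0.70) for sham and -0.24 (-0.27 to -0.20) for denervated. In nuclei of 800 to 2500 UMIs the denervated over untreated ratio of Gpd1 was 0.019, while on the mean log2 scale it was -0.98 for denervated over untreated and -0.072 for denervated over sham. Pck1, which encodes the cytosolic phosphoenolpyruvate carboxykinase, had 976 (955 to 997), 1555 (1520.4 to 1590.5) and 939 (912 to 966) CPM. It was highest in the sham library, by 0.67 (0.63 to 0.72) over untreated, and differed by -0.056 (-0.11 to -0.0045) between denervated and untreated, an interval whose upper end lies close to 0, by 0.045 in nuclei of 800 to 2500 UMIs and by -0.59 on the mean log2 scale. Gk was the least counted of the 9 in untreated nuclei, with 486 UMIs or 57.1 (52.1 to 62.4) CPM, against 204 (192 to 217) in sham and 102 (93.7 to 112) in denervated nuclei. The 3 Gk intervals did not overlap, and the log2 ratio to untreated was 1.84 (1.68 to 2.0) for sham and 0.84 (0.66 to 1.02) for denervated. Aqp7 had 139 (131 to 147), 149 (139 to 161) and 125 (116 to 136) CPM, with intervals of sham and untreated that overlapped and a denervated over untreated ratio of -0.15 (-0.29 to -0.0063).

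**Figure D1:**
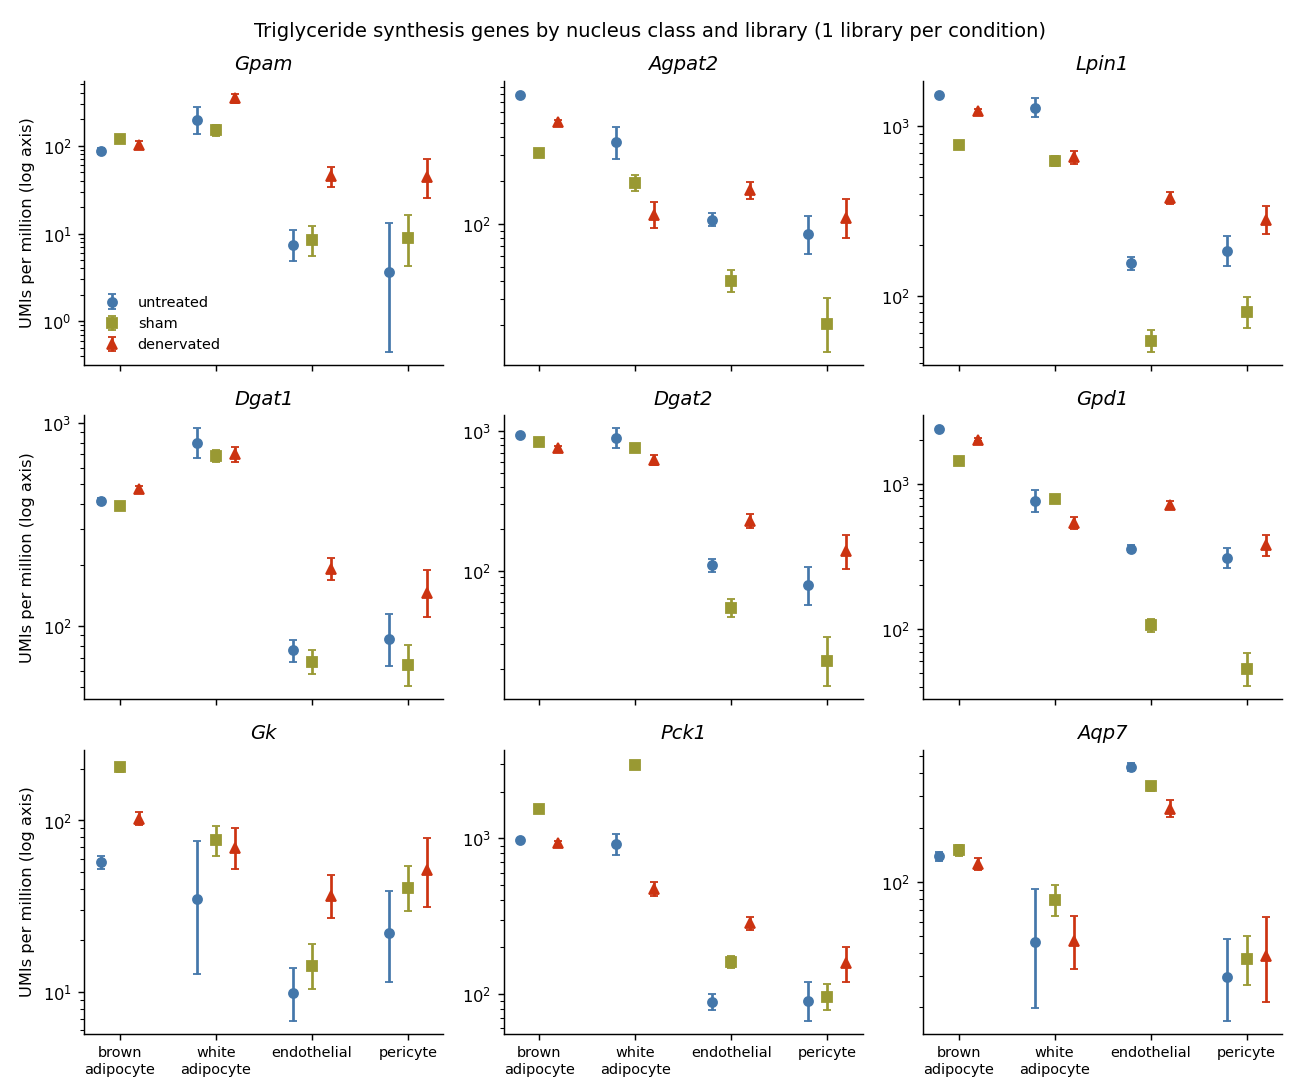
Each panel plots one gene, with CPM on a log axis against 4 classes of nuclei, for the untreated (circles), sham (squares) and denervated (triangles) library. Bars are exact 95% Poisson intervals for counting error. Gk in brown adipocyte-like nuclei spans 57.1 to 204 CPM, and Aqp7 is highest in endothelial-like nuclei of all 3 libraries.

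Set against each other across all 9 genes, denervated and untreated brown adipocyte-like nuclei differed by log2 ratios from -0.62 for Agpat2 to 0.84 for Gk, with a median of -0.15 beside -0.010 over all 4530 genes with at least 50 CPM in either library. None of the 9 was higher by 2-fold or more, as 1.1% of all genes were, and none was lower by 2-fold or more, as 0.442% were. On the mean log2 scale Agpat2 was at -1.01 in this comparison, which is not a fold. The median depth was 1818.5 UMIs in the untreated and 889 in the denervated nuclei. Over the alternatives, that scale included, the denervated over untreated ratio ran from -1.01 to -0.35 for Agpat2, -0.86 to -0.15 for Lpin1, -0.84 to -0.060 for Dgat2 and -0.055 to 0.61 for Gpam. For sham over untreated the ratios ran from -1.32 to 1.84 with a median of -0.087, beside -0.014 over all genes. Gk was the 1 gene higher by 2-fold or more in this comparison, against 7.37% of all genes, and Agpat2 the 1 gene lower, against 6.95%. These shares of 1 in 9 lie near the background. On the mean log2 scale Gk was at 0.45 for sham over untreated and at 0.052 for denervated over untreated, and these values are not folds. For denervated over sham the median was -0.15, beside 0.0081 over all genes, and no gene passed 2-fold, against 7.41% higher and 7.43% lower among all genes. Gk came closest, at -0.998 (-1.15 to -0.84), short of 2-fold in the third decimal, and it passed 2-fold under 9 alternative settings of the processing, while it stood at -0.39 on the mean log2 scale and at -0.86 with both adipocyte classes pooled. Agpat2 at 0.70 (0.60 to 0.79), Lpin1 at 0.67 (0.61 to 0.73) and Gpd1 at 0.50 (0.45 to 0.54) were higher by CPM in the denervated than in the sham library, and Pck1 was lower, at -0.73 (-0.78 to -0.68). On the mean log2 scale Gpd1 was at -0.072 and Pck1 at -1.26. Over the alternatives, that scale included, the denervated over sham ratio ran from 0.17 to 0.86 for Agpat2, 0.39 to 0.75 for Lpin1 and -1.26 to -0.37 for Pck1. The sham over untreated ratio ran from 0.30 to 0.92 for Pck1 and 0.068 to 0.52 for Gpam. The 3 comparisons share libraries. The median absolute log2 ratio over all genes was 0.194 for denervated over untreated and 0.401 for sham over untreated, so the 2 libraries without nerve cutting differed more than the untreated and the denervated library did. The operation, the table without a header and the library cannot be told apart.

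**Figure D2:**
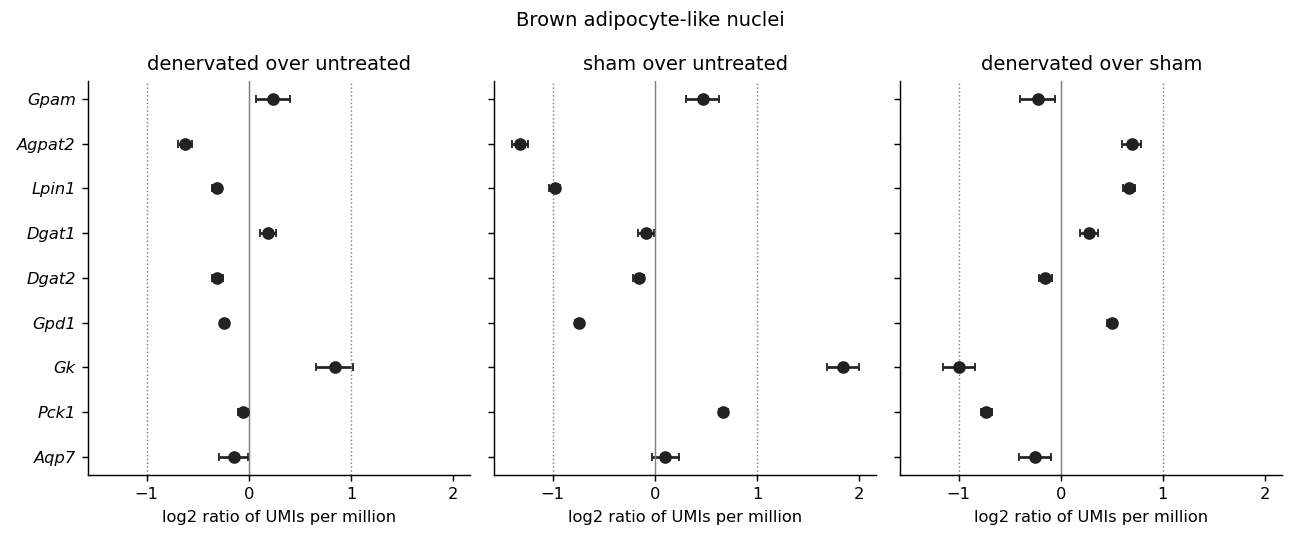
Log2 ratios of CPM in brown adipocyte-like nuclei are plotted for the 9 genes in 3 comparisons, with exact 95% intervals for counting error as bars and dotted lines at 2-fold. All ratios of denervated over untreated lie inside 2-fold, and those of sham over untreated reach from -1.32 to 1.84.

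The brown adipocyte-like class held several clusters, and its genes varied among them. In the untreated library the main cluster had 3709 nuclei, and a cluster of 667 nuclei was led by heat shock genes (Hspa1a, Dnajb1). Gpd1 had 1578 (1493 to 1667) CPM in the heat shock cluster and 2456 (2421 to 2492) in the main one, and Agpat2 had 527 (478 to 579) against 812 (792 to 833). Dgat2 was also lower there, at 631 against 974 CPM, whereas Gk was higher, at 81.1 against 54.3, and Aqp7 was at 142 against 139. In the denervated library the heat shock cluster held 1468 nuclei. There Gpd1 had 1121 (1058 to 1187.5) CPM against 2252 (2206 to 2299.6) in the main cluster of 3497 nuclei, Agpat2 279 against 570.0, Dgat2 421 against 848, Gk 149 against 89.9 and Gpam 141 against 93.4. Dgat1 had 470 (424 to 520) CPM in the untreated heat shock cluster and 407 (393 to 422) in the main one. In the denervated library it had 585 (540 to 633) against 442 (422 to 464). Lpin1 had 1205 against 1570 CPM in the untreated and 1075 against 1275 in the denervated library. Gpd1, Agpat2, Dgat2 and Lpin1 were thus lower and Gk and Dgat1 higher in the heat shock clusters of both libraries. Aqp7, at 117 (97.2 to 139.7) against 129 (118 to 140.4) in the denervated library, had overlapping intervals in each. In the sham library the second cluster, with 908 nuclei, was led by Pdk4, Jun, Arc and the heat shock gene Dnajb1, followed by Pck1 itself. Pck1 had 2637 (2545 to 2731) CPM there and 1210.4 (1175 to 1246) in the main sham cluster of 2537 nuclei. With the heat shock-led clusters left out, Lpin1 joined Agpat2 among the genes lower by 2-fold or more in sham than in untreated nuclei. The sham library had no such cluster by this rule, so in that comparison only untreated nuclei were removed. Yet before any removal the summed level of 6 heat shock genes was 3712 CPM in sham and 2336 in untreated brown adipocyte-like nuclei. The share of all genes past 2-fold under this setting is not given, so the added call is not read as a result about Lpin1. All clusters of a library were made from the same nuclei, so the differences between clusters describe them.

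White adipocyte-like nuclei were named by Slc7a10, Retn, Lep, Nnat and Sncg, and the summed level of these 5 markers was 1658, 1761 and 1496 CPM in the untreated, sham and denervated libraries, against 151, 166 and 195 in brown adipocyte-like nuclei. The summed level of 7 brown adipocyte markers ran the other way, at 1328, 1773 and 1165 against 4848, 5895 and 6293 CPM. Both lists entered the naming of the adipocyte clusters, so these sums are no separate check of it. The summed level of 6 heat shock genes was also higher in the white adipocyte-like nuclei, at 9322, 23805 and 11988 against 2336, 3712 and 2836.5 CPM, and its part in the results was not tested. The denervated cluster was led by the inflammatory genes Ptx3 and Cxcl1.

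Dgat1 and Gpam were higher in white than in brown adipocyte-like nuclei of every library. Dgat1 had 797 (669.6 to 942) CPM in the untreated, 690.2 (645 to 737) in the sham and 699.8 (643 to 760.4) in the denervated library, which gave log2 ratios of white over brown of 0.95 (0.69 to 1.19), 0.83 (0.71 to 0.94) and 0.57 (0.43 to 0.70). Gpam had 196 (136 to 274) CPM in the untreated, 149.9 (129 to 173) in the sham and 345 (306 to 389) in the denervated library, with ratios of 1.17 (0.63 to 1.67), 0.31 (0.071 to 0.55) and 1.75 (1.53 to 1.96). Gpd1, Agpat2 and Aqp7 were lower in the white adipocyte-like nuclei of every library. The ratio of Gpd1 was -1.64 (-1.896 to -1.39), -0.85 (-0.95 to -0.76) and -1.91 (-2.05 to -1.77). That of Agpat2 was -1.08 (-1.46 to -0.73), -0.69 (-0.89 to -0.50) and -2.13 (-2.45 to -1.83), and that of Aqp7 was -1.59 (-2.80 to -0.60), -0.92 (-1.24 to -0.62) and -1.43 (-1.95 to -0.95), the first from 8 UMIs. RNA from outside the nuclei stays in these levels. With RNA of the profile of all barcodes subtracted, denervated white adipocyte-like nuclei kept 63.6% of Agpat2, 68.4% of Gpd1 and 63.4% of Aqp7 UMIs. These were the lowest shares of any library, and denervated brown adipocyte-like nuclei kept 94.3%, 94.3% and 90.7%. Dgat2 differed least, at -0.067 (-0.31 to 0.16), -0.16 (-0.26 to -0.056) and -0.28 (-0.42 to -0.15), and Lpin1 had ratios of -0.24 (-0.44 to -0.051), -0.31 (-0.42 to -0.20) and -0.91 (-1.04 to -0.78). Gk was at 6 UMIs in untreated white adipocyte-like nuclei, for a ratio of -0.72 (-2.17 to 0.41) that spans 0, and its ratio was -1.42 (-1.73 to -1.12) in the sham and -0.57 (-0.99 to -0.16) in the denervated library.

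Pck1 was the gene whose order changed with the library. White adipocyte-like nuclei had 918 (781 to 1073) CPM in the untreated, 2986 (2892 to 3083) in the sham and 471 (425 to 521) in the denervated library. White and brown adipocyte-like nuclei of the untreated library had overlapping intervals, those of the sham library held more Pck1 in the white class, by 0.94 (0.88 to 0.998), and those of the denervated library held less, by -0.99 (-1.15 to -0.84). The number of nuclei in the white adipocyte-like class moved with the processing, from 379 to 1989 in the sham and from 0 to 1000 in the denervated library around 1007 and 896. The white over brown ratio of Pck1 was recomputed under the alternatives after the data were seen and ran from 0.77 to 1.24 in the sham and from -1.11 to -0.59 in the denervated library, the latter without the minimum of 500 detected genes, which left no denervated white adipocyte-like nuclei. In the untreated library it was at 0.50 with all libraries clustered together and at -0.72 on the mean log2 scale. The sham brown adipocyte-like class includes the cluster of 908 nuclei given above, which has Pck1 among its leading genes. Between the white adipocyte-like classes of the denervated and the sham library the log2 ratio of Pck1 was -2.66 (-2.82 to -2.51), while Gpam stood at 1.20 (0.93 to 1.48) and Dgat1 at 0.020 (-0.14 to 0.17).

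By the 2-fold rule, 1 gene was higher and 3 were lower in white than in brown adipocyte-like nuclei of the untreated library, beside 12.6% and 19.2% of all genes with at least 50 CPM in either class. No gene was higher and 1 was lower in the sham library, beside 9.47% and 15.7%. In the denervated library 1 was higher and 3 were lower, beside 13% and 18.9%. In the untreated library, with 119 white adipocyte-like nuclei, 3 of the 4 log2 values behind its calls came below 1 in size under alternatives. At the values nearest 0 Gpam stood at 0.36 on the mean log2 scale, Agpat2 at -0.88 in nuclei of 800 to 2500 UMIs and Aqp7 at -0.42 on the mean log2 scale. The 2-fold rule does not apply to that scale. The median over the 9 genes was -0.24, -0.31 and -0.91, and the median over all genes -0.16, -0.27 and -0.22. Clusters are built from these nuclei, and no test was made.

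**Figure D3:**
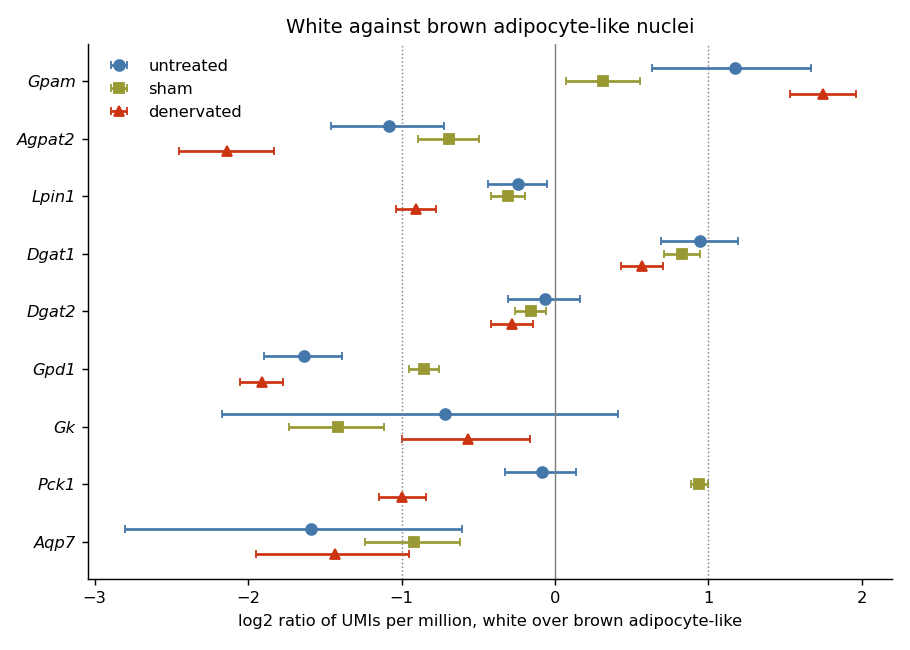
Log2 ratios of CPM of white over brown adipocyte-like nuclei are plotted for the 9 genes in the untreated, sham and denervated library, with exact 95% intervals for counting error as bars and dotted lines at 2-fold. Dgat1 and Gpam lie right of 0 and Gpd1, Agpat2 and Aqp7 left of 0 in all 3 libraries, and Pck1 lies on both sides.

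Aqp7 was the 1 gene of the 9 whose level in endothelial-like nuclei exceeded that in brown adipocyte-like, white adipocyte-like and pericyte-like nuclei. It had 437 (415 to 459.7) CPM in endothelial-like nuclei of the untreated, 339 (319 to 359.5) of the sham and 255 (229 to 283) of the denervated library. Against brown adipocyte-like nuclei the log2 ratio was 1.65 (1.54 to 1.76), 1.18 (1.05 to 1.32) and 1.02 (0.83 to 1.21). Pericyte-like nuclei, of the cells that wrap small vessels, had 29.4, 37.1 and 38.4 CPM. Of the 9 genes, 8 were higher and 1 was lower by 2-fold or more in brown adipocyte-like over endothelial-like nuclei of the untreated library, beside 26.8% and 25.2% of all genes. On the mean log2 scale, to which the 2-fold rule does not apply, Aqp7 was at -0.38, Gk at 0.22 and Gpam at 0.35. The median log2 ratio was 2.87 over the 9 genes and 0.16 over all.

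RNA from outside a nucleus adds counts to every class, and 6 adipocyte genes that named no cluster (Ucp1, Thrsp, Elovl3, Cox8b, Cox7a1 and Otop1) were taken as references for it. These 6 spread widely in each library and give no common share of outside RNA. Their endothelial-like level was 6.82 to 84.4% of the brown adipocyte-like level in the untreated, 4.89 to 35.5% in the sham and 28.6 to 95.2% in the denervated library. The 8 genes other than Aqp7 lay at 8.58 to 18.4%, 6.53 to 17.2% and 30.1 to 43.4%, below the median of these references, which was 23.7%, 18.3% and 55.1%, and inside the range of the references, so no expression in endothelial-like nuclei is read from them. Which part of these counts came from outside was not tested. Aqp7 stood at 314%, 227% and 203%, above every reference gene in all 3. When RNA with the profile of all barcodes of a library was subtracted from the endothelial-like sum, at 37.8%, 40.5% and 73.6% of its UMIs, all 8 other genes fell to 0 and Aqp7 kept 81.2%, 77.7% and 60.0% of its UMIs. That profile includes the nuclei themselves and can take off a class's own transcripts. Whether a gene falls to 0 depends on the share taken off, so the fall of the 8 genes is no separate support.

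**Figure D4:**
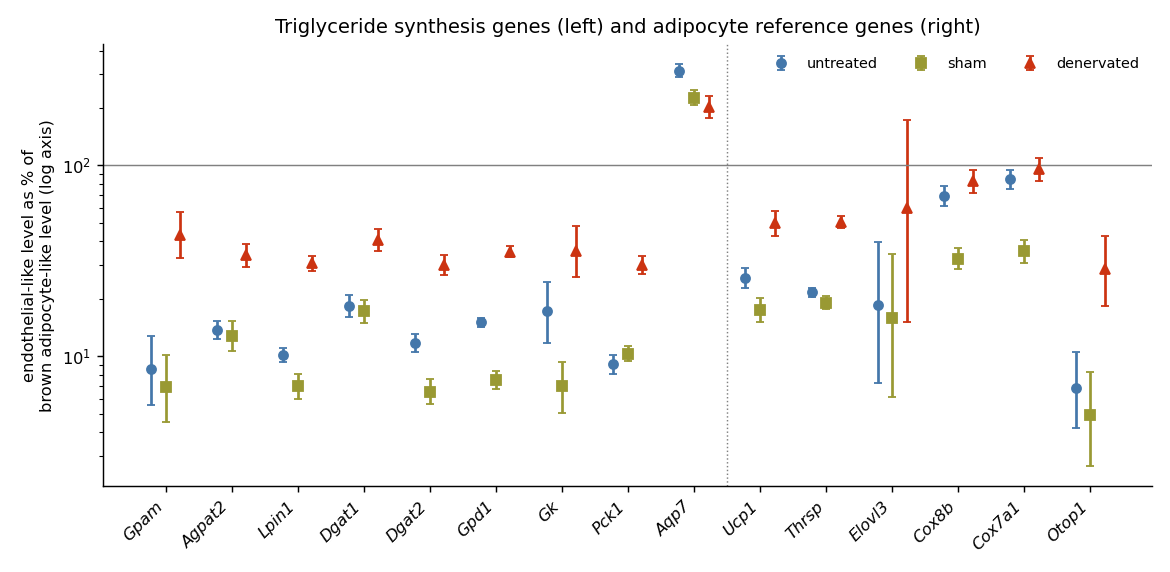
The level in endothelial-like nuclei is plotted as a percentage of that in brown adipocyte-like nuclei, on a log axis, for the 9 genes and for 6 adipocyte reference genes in the 3 libraries, with exact 95% intervals for counting error as bars. Aqp7 alone lies above the line at 100% in all 3 libraries, and the denervated library has the highest percentages for the other 8 genes.

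The Aqp7 level varied among endothelial-like clusters. In the untreated library it ran from 292 (244 to 347) CPM in a cluster of 1199 nuclei led by Myo1d and Hmcn1 to 567 (473 to 674) in a cluster of 299 nuclei led by Alox12 and with the arterial gene Sema3g among its leading genes. The largest cluster, led by hemoglobin genes and by Aqp1 and Kdr, had 451 (423 to 479.6) CPM. In the sham library the lowest level was 171 (101 to 269.5) CPM in a cluster led by the venous genes Plvap, Vwf and Selp, and the other 3 clusters lay from 341 to 381 CPM. The denervated endothelial-like class was made of 2 unlike clusters. One of 1217 nuclei led by Aqp1 and Kdr had 379 (333 to 429) CPM of Aqp7 and 507 of Gpd1, and the other, of 1389 nuclei led by Efr3b and Ablim3, had 135 (109 to 165) of Aqp7 and 906 of Gpd1. The second thus held more of the adipocyte transcript and an Aqp7 level like that of brown adipocyte-like nuclei, and the denervated endothelial-like values are means over both. An unnamed untreated cluster of 222 nuclei, led by Ccl21a and with 20.5% mitochondrial UMIs in the unnamed nuclei, had 543 (409 to 707) CPM.

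**Figure D5:**
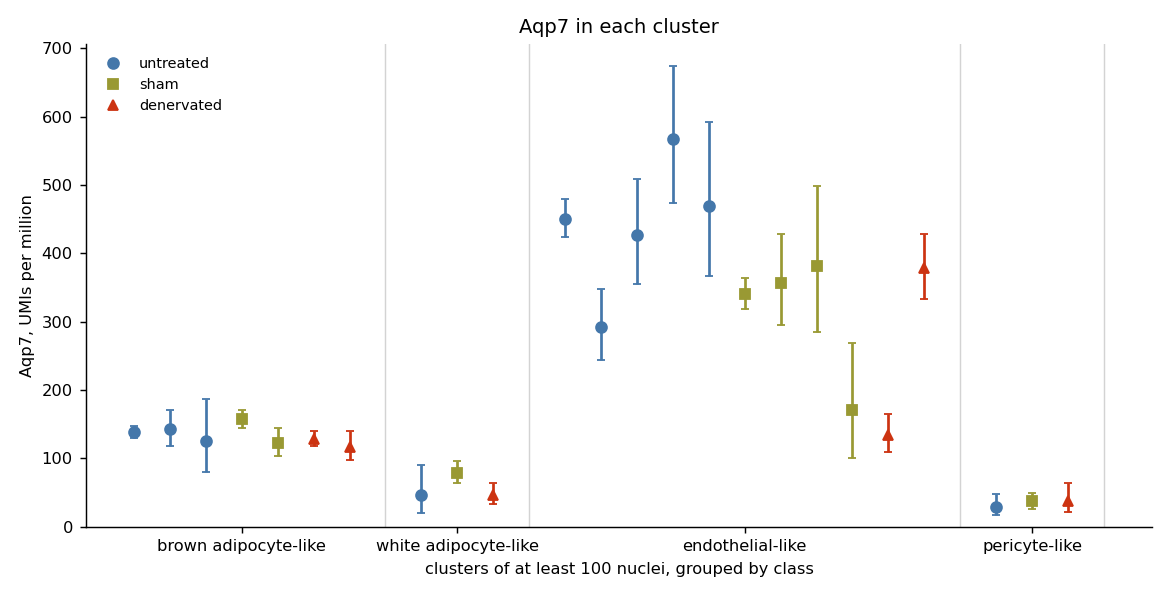
The Aqp7 level in CPM is plotted for each cluster of at least 100 nuclei, grouped by class and drawn by library, with exact 95% Poisson intervals as bars. Brown adipocyte-like clusters lie from 117 to 158 CPM, and endothelial-like clusters from 135 to 567.

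In pericyte-like nuclei all 9 genes were lower than in brown adipocyte-like nuclei, at 4.22 to 38.7% of that level in the untreated library, where the reference genes lay at 9.48 to 45.7%. In the sham library Gk and Aqp7, at 19.9% and 24.8%, exceeded the highest reference of 17.9% there, from 46 and 42 UMIs. The fibroblast-like, Schwann-like and immune-like classes held 28 to 257 nuclei each, and up to 4 of the 9 genes had no UMI in such a class. Gpd1 had 881 (667 to 1142) CPM in immune-like nuclei of the untreated library, from 57 UMIs, an interval that spans the untreated white adipocyte-like level, 474 (372 to 596) in those of the denervated library, and 3 UMIs in those of the sham library. The 336 smooth muscle-like nuclei, found in the sham library, held the 9 genes at 16.1 to 161 CPM. Taken as 3 counts of the class total, the floor behind a count of 0 was 120.4 CPM in the 28 untreated fibroblast-like nuclei, above the brown adipocyte-like level of Gk.

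Detection in single nuclei followed the same order. With every nucleus thinned to 800 UMIs, at least 1 Gpd1 UMI was found in 77.6% (76.3 to 78.8) of untreated, 62.2% (60.4 to 63.9) of sham and 72.0% (70.3 to 73.6) of denervated brown adipocyte-like nuclei, and in 25.3% (23.2 to 27.5), 7.89% (6.32 to 9.72) and 43.2% (37.7 to 48.8) of endothelial-like nuclei. The thinning left out 364, 506 and 2052 brown adipocyte-like and 3118, 4319 and 2282 endothelial-like nuclei with fewer UMIs. Before thinning the Gpd1 shares were 88.1%, 74.7% and 65.0% of brown adipocyte-like nuclei, at median depths of 1818.5, 1407 and 889 UMIs, and 20.2%, 5.72% and 20.5% of endothelial-like nuclei at 672, 507 and 394 UMIs. Detection of Gpd1 was more frequent in brown than in endothelial-like nuclei with and without thinning. Among brown adipocyte-like nuclei the sham library had the smallest share after thinning and the denervated library, the shallowest, had it before.

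Gk was found in 4.68% (4.06 to 5.35), 13.5% (12.3 to 14.8) and 6.32% (5.46 to 7.26) of thinned untreated, sham and denervated brown adipocyte-like nuclei, and in 0.603% (0.289 to 1.11) of untreated endothelial-like nuclei. Agpat2 was found in 41.8% (40.3 to 43.3), 21.3% (19.9 to 22.9) and 30.8% (29.2 to 32.5) of the brown adipocyte-like nuclei. Aqp7 was found in 10.5% (9.59 to 11.4), 11.6% (10.5 to 12.8) and 9.03% (8.02 to 10.1) of them, against 29.7% (27.5 to 32.0), 21.7% (19.2 to 24.4) and 12.7% (9.24 to 16.8) of endothelial-like nuclei. The Aqp7 shares were larger in endothelial-like nuclei of the untreated and sham libraries, while the intervals of the denervated library overlapped. A thinned brown adipocyte-like nucleus held UMIs of 3.26, 2.86 and 3.003 of the 9 genes on average in the 3 libraries, and 1.23%, 2.69% and 2.38% of these nuclei held none. The averages were 2.49, 2.57 and 1.97 in white adipocyte-like and 0.962, 0.589 and 1.89 in endothelial-like nuclei.

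The study turns on c-Kit in brown adipocytes after denervation, so the 9 genes were read in denervated brown adipocyte-like nuclei with and without a Kit UMI. Of 4997 nuclei, 800 had a Kit UMI, and each was matched to a nucleus without one by its number of UMIs, at a median of 1193 in both groups. The log2 ratio was 0.27 (0.099 to 0.43) for Agpat2 and 0.18 (0.095 to 0.27) for Gpd1, both higher where Kit was detected beyond counting error. Pck1 was at -0.13 (-0.27 to -0.0038), with an upper bound close to 0 that passed it with a minimum of 500 detected genes, at 10% mitochondrial UMIs and with background RNA subtracted. The intervals of the other 6 genes held 0, with ratios from -0.20 for Aqp7 to 0.20 for Gpam. Over the alternatives the ratio ran from -0.62 to 0.39 for Gpam and -0.25 to 0.34 for Aqp7, so no direction can be given for either. Without matching on UMIs, where the medians were 1193 and 851 UMIs, the Pck1 interval held 0, at -0.051 (-0.16 to 0.053), while Lpin1 at 0.25 (0.17 to 0.34) and Dgat2 at 0.31 (0.20 to 0.42) joined Agpat2 at 0.45 (0.32 to 0.58) and Gpd1 at 0.30 (0.24 to 0.37) above 0. The intervals above and below 0 thus numbered 4 and 0 unmatched, against 2 and 1 matched. The share of all genes whose interval leaves out 0 is not given, so these counts show only that they moved with the matching. With at least 2 Kit UMIs the Agpat2 interval held 0 too, at 0.31 (-0.045 to 0.67). The median over the 9 was 0.080 (-0.13 to 0.25), with the medians of the bounds as interval, beside -0.013 over all genes. In the untreated library, with 1751 nuclei in each group, Agpat2 was at 0.12 (0.044 to 0.19), Gpd1 at 0.081 (0.039 to 0.12), Lpin1 at 0.096 (0.043 to 0.15) and Pck1 at -0.15 (-0.22 to -0.083), the same directions at smaller sizes for Agpat2 and Gpd1. The matched untreated groups still differed in depth, with medians of 2083 and 1997 UMIs. In the sham library 160 of 3445 nuclei had a Kit UMI and the intervals of all 9 genes held 0. A nucleus with no Kit UMI can still express Kit, and the difference between libraries was not tested.

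Further genes of the pathway were taken from a list of 30, which holds other acyltransferases, phosphatases, glycerol channels and acyl-CoA synthetases. In brown adipocyte-like nuclei 11 of them had at least 50 CPM in either library of a pair. None of the 11 passed 2-fold for denervated over untreated, beside 1.1% higher and 0.442% lower of all genes, with a median log2 ratio of -0.082, and the largest differences were -0.66 (-0.77 to -0.55) for the lipid phosphatase gene Plpp3, -0.39 (-0.55 to -0.23) for the acyl-CoA synthetase gene Acsl3, 0.39 (0.28 to 0.49) for the endoplasmic reticulum acyltransferase gene Gpat4 and -0.30 (-0.35 to -0.24) for Gpd2, the mitochondrial partner of Gpd1. For sham over untreated 4 of 11 were lower and none was higher by 2-fold or more, beside 6.95% and 7.37% of all genes. These were Acsl3 at -2.40 (-2.70 to -2.11), Acsl5 at -2.35 (-2.49 to -2.21), Plpp3 at -2.20 (-2.38 to -2.03) and Gpd2 at -1.55 (-1.62 to -1.47). The same 4 were higher by 2-fold or more for denervated over sham, from 1.25 (1.17 to 1.34) for Gpd2 to 2.23 (2.09 to 2.38) for Acsl5, and Acsl1 was lower, at -1.04 (-1.09 to -0.98), beside 7.41% higher and 7.43% lower of all genes. Acsl1 and Gpat4 were higher in sham than in untreated nuclei by 0.96 (0.92 to 1.01) and 0.87 (0.77 to 0.96), short of 2-fold. Isoforms of 1 step thus stood in opposite order in the sham library, as Acsl1 did against Acsl3 and Acsl5.

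Between the adipocyte classes of the untreated library, 3 of 14 listed genes were higher and 4 lower by 2-fold or more in white adipocyte-like nuclei, beside 12.6% and 19.2% of all genes. Acsl5 was at -3.14 (-4.20 to -2.26), Acsl4 at 2.01 (1.38 to 2.59), Gpat3 at 1.94 (1.26 to 2.55) and Agpat3 at -1.74 (-2.55 to -1.04), the 4 largest, from 10 to 26 UMIs each in the white class. In the sham library Gpat3 was at 3.23 (2.87 to 3.60) and Plpp3 at 2.61 (2.39 to 2.82), and Acsl5 and Agpat3 were again lower, at -2.07 (-2.66 to -1.54) and -1.38 (-1.61 to -1.16). In the denervated library Acsl5 was at -2.93 (-3.37 to -2.52) and Gpd2 at -2.27 (-2.53 to -2.01), followed by Acsl3 at -1.51 (-2.15 to -0.93) and Acsl4 at 1.503 (1.05 to 1.94). Gpat3 exceeded its brown adipocyte-like level in all 3 libraries, as Gpam did. In endothelial-like nuclei of the untreated library the lipid phosphatase genes Plpp1 and Plpp3 exceeded the brown adipocyte-like level, with 2 of 12 listed genes lower and 9 higher by 2-fold or more in the brown adipocyte-like class, beside 25.2% and 26.8% of all genes. Plpp1 had 395 CPM in endothelial-like and 12.7 in brown adipocyte-like nuclei, and Plpp3 had 1379.9 and 279. Pcx, the pyruvate carboxylase gene that acts before Pck1, and Acsl1 were the most tilted to brown adipocyte-like nuclei, at 3.03 (2.81 to 3.24) and 2.93 (2.77 to 3.09).

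Likeness of pattern was read as the correlation of log2(CPM + 10) across the 28 clusters of at least 100 nuclei in the 3 libraries, over 9009 other genes. Clusters of 1 library share its depth and background, so the values are a description. Genes most like Gpd1 included Clstn3 (r = 0.98) and Ppp1r3b (r = 0.96), and those most like Agpat2 were Acat2 (r = 0.96), Gpd1 (r = 0.95) and Clstn3 (r = 0.94). Lpin1 was most like Pnpla3 (r = 0.98), Acaca (r = 0.97) and Mlxipl (r = 0.97), of which Acaca encodes acetyl-CoA carboxylase and Mlxipl the carbohydrate response factor ChREBP. Dgat1 was most like Sik2 (r = 0.97), Tenm4 (r = 0.97) and 4933406I18Rik (r = 0.96), and Dgat2 most like Fam213a (r = 0.96), Cdo1 (r = 0.95) and Chpt1 (r = 0.95). Gpam was most like Slc1a3 (r = 0.96), Pde3b (r = 0.95) and Bckdhb (r = 0.95). For Pck1 these were Cidec (r = 0.95), Chpt1 (r = 0.95) and Cluh (r = 0.95), and for Gk they were Fam13a (r = 0.93), Tbc1d31 (r = 0.92) and Acox3 (r = 0.91). Aqp7 was most like Clic5 (r = 0.91), Inpp1 (r = 0.89) and Afdn (r = 0.89).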

How the data were processed

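The deposited tables give unnormalized UMI counts, whole numbers for each barcode and gene, of 3 BAT libraries. Per the file headers, the untreated and denervated tables came from the BD Rhapsody WTA pipeline 1.9 (nuclei) with GRCm38 and GENCODE vM19. The sham table states no version or build. The submitters' processing notes name Seurat 4.0.6 and GRCh38, which differs from the headers. The counts precede the removal of debris and of ambient RNA in the paper's methods, and neither was repeated, so RNA from outside the nuclei stays in the main values.

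A barcode was kept if it had 200 or more detected genes and no more than 50% mitochondrial UMIs. A nucleus counted as a doublet, and was removed, if 2 marker lists of different cells (endothelial, adipocyte, pericyte, fibroblast) had 3 or more UMIs each and the smaller sum reached 25% of the larger (1244, 2165 and 778 nuclei). Each library was clustered alone on 2000 variable genes, 30 components, 20 neighbours and Louvain resolution 0.5, without the 9 genes, the pathway list and mitochondrial genes. A cluster of at least 20 nuclei took the name of the best-scoring marker list if at least 3 markers had 3 UMIs and 2-fold the lower quartile over clusters. An adipocyte cluster was called white where at least 3 white markers passed and the white score exceeded the brown one, and brown otherwise. A name was withdrawn where the 10 genes highest by fold held more markers of another list than of its own. This left 222 untreated nuclei unnamed that scored best as endothelial, with the lymphatic marker Ccl21a and no marker of the endothelial list among those 10. The names are rebuilt and may differ from the study's.

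UMIs were summed per class and given as CPM, with exact Poisson, Clopper-Pearson and conditional binomial intervals. Genes with at least 50 CPM in either group were compared, and 2-fold was the call. No p-value was computed. The 9 genes are always named, and of the pathway list of 30 the counts and up to 4 genes with the largest ratios per comparison. The other genes named were added after their values were seen. Lpin2 and the reference gene Cpt1b were not analysed here, and a few genes that these rules would name are not reported here. The genes and lists were chosen with earlier results of these data known. Functions were tested on simulated data. Clustering used python-igraph 0.11.9 and scikit-learn 1.9.0, statistics scipy 1.17.1, tables pandas 2.3.3 with numpy 2.4.6, and figures matplotlib 3.10.9, under Python 3.11.15. Positions are from GENCODE vM21. The alternatives are named in the closing section.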

Additional observations from a re-analysis of the deposited data

Results flagged for a closer look

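Pck1 stood in opposite order between the adipocyte classes of different libraries. White over brown adipocyte-like nuclei gave a log2 ratio of 0.94 (0.88 to 0.998) in the sham and of -0.99 (-1.15 to -0.84) in the denervated library. The difference between the libraries was not tested, since each is 1 sample. The denervated white adipocyte-like cluster was led by the inflammatory genes Ptx3 and Cxcl1, and the part of this state in the values was not tested. Under the alternatives that gave both classes at least 20 nuclei the ratio ran from 0.77 to 1.24 in the sham and from -1.11 to -0.59 in the denervated library. Over all alternatives the white adipocyte-like class held from 379 to 1989 nuclei in the sham and from 0 to 1000 in the denervated library.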

How the results depend on the processing

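Depth, the mitochondrial share and background RNA differ between the libraries, and 1 library per condition leaves no replicate check. Alternatives were run for the 9 genes in the 3 library comparisons of brown adipocyte-like nuclei, the 2 class comparisons of the untreated library, Pck1 in white over brown adipocyte-like nuclei of the other libraries and the Kit split of the denervated library, and there no ratio past 2-fold changed sign. The median log2 ratio of the 9 genes for denervated over sham, -0.15, moved to -0.042 with at least 500 detected genes, -0.042 with classes from marker UMIs of each nucleus, -0.22 without mitochondrial genes in the totals, 0.021 in nuclei of 800 to 2500 UMIs, 0.0077 without heat shock-led clusters and 0.11 with both adipocyte classes pooled, an alternative chosen after seeing the data. For denervated over untreated, -0.15, it was -0.59 as a difference of mean log2 counts per 10000 plus 1 and 0.014 at 800 to 2500 UMIs. For sham over untreated, -0.087, it was -0.18 with doublets kept, -0.00046 with classes from marker UMIs and -0.22 on the mean log2 scale. The 2-fold rule does not apply to the mean log2 scale. Of the genes past 2-fold by CPM, Gk in sham over untreated stood at 0.45 on it. In brown adipocyte-like over endothelial-like nuclei Aqp7 stood at -0.38, Gk at 0.22 and Gpam at 0.35 on it. Not past 2-fold by CPM but past 1 in size on the mean log2 scale were Agpat2 in denervated over untreated (-1.01), Lpin1 in sham over untreated (-1.25) and Pck1 in denervated over sham (-1.26). White over brown went from -0.24 to -0.56 on that scale, and brown adipocyte-like over endothelial-like from 2.87 to 1.904 there, 3.11 at 10% mitochondrial UMIs and 2.09 with doublets kept. It had no value with background RNA subtracted, since 8 genes fell to 0. The count past 2-fold for denervated over sham went from 0 to 1 with the minimum of 500 genes, 10% mitochondrial UMIs, resolution 1, joint clustering, background subtraction, totals without mitochondrial genes, scaling to the median ratio, 800 to 2500 UMIs, no heat shock-led clusters (by Gk in these 9) or pooled classes (by Pck1, at -1.08). Called at 1.5-fold, the counts were 2 for denervated over untreated, 4 for denervated over sham and 5 for sham over untreated. The share of all genes past 1.5-fold is not given beside them, so these counts are not read as a result about the 9 genes. Where a median lies this near 0, its sign carries no direction. The cause of these moves was not tested. No paired analysis was possible with 1 library per condition.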
